A study of Mus musculus with 6 samples.

Results

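Endoplasmic reticulum-associated degradation (ERAD) was followed in mouse heart muscle cells through 10 genes. They were the derlin genes Derl1, Derl2 and Derl3, the HRD1 ligase complex genes Sel1l, Syvn1 and Herpud1, the EDEM genes Edem1, Edem2 and Edem3, and the lectin gene Os9. The genes were taken by name from a table of read counts, which held all 10 among 23337 genes. All 10 passed the filter on low counts, which left 14587 genes for testing. Wild-type mice had been injected at postnatal day 1 with an adeno-associated virus (AAV), and their cardiomyocytes were taken at 4 weeks of age by Langendorff perfusion, in which the heart is digested through its own vessels, and sorted by fluorescence. The groups were AAV-ATF6N (the amino-terminal fragment of ATF6, as commonly named), AAV-XBP1S (the spliced form of XBP1, labelled AAV-XBP1 in part of the sample labels) and the control AAV-GFP, with 2 libraries of polyadenylated RNA each. The sources used here do not give the promoter behind each transgene, the mouse strain or the marker used for sorting. The labels do not say that the libraries of a group came from separate animals, so p-values cover the spread between samples alone, and this spread may be technical.

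Misfolded proteins of the endoplasmic reticulum (ER) lumen and membrane are recognised by lectins and chaperones, moved back across the membrane, tagged with ubiquitin and degraded by the proteasome. SYVN1, also called HRD1, is the membrane ubiquitin ligase at the centre of this route, and SEL1L is the partner that holds it stable and links it to the lectins. ATF6 and XBP1 act in the unfolded protein response as transcription factors that bind ER stress response elements. In the mouse heart, ATF6 is known to induce ERAD genes, Derl3 among them.

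Promoter sequences from RefSeq on GRCm38.p6, the build behind mm10, were available for 9 of the 10 genes, while Derl1 was not matched. Each window held 250 bases before the start of transcription and 50 after it, and both strands were searched. The ER stress response element (ERSE) was searched as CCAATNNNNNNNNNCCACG, ERSE-II as ATTGGNCCACG and the unfolded protein response element (UPRE) as TGACGTGG. ERSE-II was found in Herpud1, at bases 52 to 42 before the start. This RefSeq start lies upstream of the start of Herpud1 in the deposited gene coordinates (94386500). ERSE was found in Derl3, on the reverse strand at bases 156 to 138 before the start, and in Syvn1, at bases 44 to 26. UPRE was found in 0 of the 9. Among all 32851 promoters searched, 0.119% held ERSE, 0.0365% ERSE-II and 0.676% UPRE. The upstream bases of these 3 genes are shown because they hold the elements, and those of Sel1l because it had the next largest difference after Derl3. They run 5′ to 3′ on the gene's own strand, from base 250 to base 1 before the start. Capitals mark ERSE in Derl3 and Syvn1, ERSE-II in Herpud1, and in Sel1l each CCAAT or CCACG box on either strand (ATTGG or CGTGG when read in reverse). The regions are chr10:75893148-75893397 (plus strand) for Derl3, chr19:6046326-6046575 (plus) for Syvn1, chr8:94386179-94386428 (plus) for Herpud1 and chr12:91849158-91849407 (minus) for Sel1l.
Derl3: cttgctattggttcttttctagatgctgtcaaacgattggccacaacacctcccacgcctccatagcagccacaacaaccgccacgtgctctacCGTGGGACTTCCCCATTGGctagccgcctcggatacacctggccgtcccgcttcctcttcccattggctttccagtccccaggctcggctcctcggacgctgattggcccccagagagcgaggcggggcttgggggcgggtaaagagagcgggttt
Syvn1: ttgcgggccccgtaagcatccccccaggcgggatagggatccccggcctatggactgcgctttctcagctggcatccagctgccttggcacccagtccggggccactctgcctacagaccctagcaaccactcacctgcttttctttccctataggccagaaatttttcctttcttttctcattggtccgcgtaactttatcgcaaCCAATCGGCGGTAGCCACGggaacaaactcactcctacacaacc
Herpud1: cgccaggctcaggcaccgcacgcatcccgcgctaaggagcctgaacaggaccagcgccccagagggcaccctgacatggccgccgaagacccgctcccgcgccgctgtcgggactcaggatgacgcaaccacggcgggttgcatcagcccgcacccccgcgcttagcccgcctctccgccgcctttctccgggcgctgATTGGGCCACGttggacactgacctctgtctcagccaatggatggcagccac
Sel1l: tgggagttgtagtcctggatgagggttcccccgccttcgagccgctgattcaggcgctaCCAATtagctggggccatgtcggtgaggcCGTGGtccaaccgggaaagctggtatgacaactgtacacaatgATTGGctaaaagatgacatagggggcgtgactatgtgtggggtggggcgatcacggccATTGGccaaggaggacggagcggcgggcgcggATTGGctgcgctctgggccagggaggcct
The short boxes lie inside the longer elements, since each ERSE holds 1 of each box and ERSE-II holds a reverse CCAAT box that does not overlap its CCACG box. On their own they were common: 37.4% of all promoters held CCAAT and 32.8% held CCACG, against 8 and 9 of the 9 ERAD genes. A match describes the letters in the window and is not evidence of binding.

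Total counts ran from 67702482 to 83930718 in AAV-ATF6N, from 71571677 to 85298584 in AAV-XBP1S and from 72855725 to 112049342 in AAV-GFP. Levels are given in CPM, counts scaled to a common library size, and 3 counts came to between 0.0305 and 0.0459 CPM. The 8 cardiomyocyte markers (among them Myh6, Tnnt2 and Ryr2) summed to 119479 and 121136 CPM in AAV-ATF6N, 71836 and 85616 CPM in AAV-XBP1S, against 92421 and 100189 CPM in AAV-GFP, and none was at 0. They did not move together. Both AAV-ATF6N libraries lay above both AAV-GFP libraries for Myh6 and Actn2 and below them for Tnnt2, Tnni3 and Myl2. Ryr2, Pln and Atp2a2 overlapped. Myh6 had 66565 and 65071 CPM in AAV-ATF6N, against 22991 and 41121 CPM in AAV-GFP. Tnnt2 had 12046 and 13148 CPM, against 24242 and 14669 CPM. The 4 erythroid markers summed to 40.7 to 41.7 CPM in AAV-ATF6N, 69.7 to 105.7 CPM in AAV-XBP1S, against 130.4 to 277.1 CPM in AAV-GFP, with Hba-a1 at 0 in all 6 libraries. The 5 endothelial markers summed to 391 to 434 CPM, 645 to 984 CPM and 352 to 619 CPM in the same 3 groups. Of these, Cdh5, Tie1 and Emcn lay lower in both AAV-ATF6N libraries than in both AAV-GFP libraries, while Pecam1 and Kdr overlapped. The 5 fibroblast markers summed to 273 to 279 CPM in AAV-ATF6N, 404 to 418 CPM in AAV-XBP1S, against 224 to 241 CPM in AAV-GFP. Between AAV-ATF6N and AAV-GFP, Col1a1 and Lum lay higher in both AAV-ATF6N libraries, Tcf21 lay lower, and Dcn and Pdgfra overlapped. The part of all these cell types in the results was not tested. In bulk RNA fewer cells of a type and less RNA per cell cannot be told apart.

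Libraries also stood apart within and between groups. AAV-GFP replicate 1 had 0.337% of its counts on Rn45s, the ribosomal RNA precursor, and AAV-XBP1S replicate 1 had 0.130%, against 0.0319% to 0.0416% in the other 4. The sex-linked genes differed between groups as well. Xist, which is transcribed from the inactive X chromosome of females, had 16 and 6 counts in AAV-ATF6N, 4014 and 1650 in AAV-XBP1S, against 2424 and 562 in AAV-GFP. The Y-linked gene Ddx3y had 7626 and 5856 counts in AAV-ATF6N, 2 and 0 in AAV-XBP1S, against 1142 and 1498 in AAV-GFP. AAV-ATF6N libraries thus carried Y-linked RNA with almost no Xist, AAV-XBP1S libraries the reverse, and AAV-GFP libraries both. Counts of Ddx3y did not overlap between any of the groups, so in all 3 comparisons the sex signal and the virus cannot be told apart.

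Derl3 was the 1 ERAD gene of the 10 that passed the test, and it rose in both AAV-ATF6N and AAV-XBP1S over AAV-GFP and in AAV-ATF6N over AAV-XBP1S. Calls use the quasi-likelihood test of edgeR, adjusted by Benjamini-Hochberg over 14587 genes, at a threshold of 0.05. As background, 0.35% of all genes tested were called higher in AAV-ATF6N over AAV-GFP, 0.178% in AAV-XBP1S over AAV-GFP and 0.171% in AAV-ATF6N over AAV-XBP1S. The comparisons with AAV-GFP share its 2 libraries, and every pair of comparisons shares a group. In AAV-ATF6N over AAV-GFP, 9 of the 10 genes had both AAV-ATF6N libraries above both AAV-GFP libraries, against 27.9% of all genes, and Edem2 had both below, against 26.7%. In AAV-XBP1S over AAV-GFP, 6 of the 10 lay above, against 19.1% of all genes, and Herpud1 below, against 16.8%. In AAV-ATF6N over AAV-XBP1S, 5 of the 10 lay above, against 30.1%, and Edem2 and Os9 below, against 26.8%. Such a separation can be narrow: there Os9 had a log2 fold change of -0.09 and Derl2, among those above, 0.10. The median log2 fold change of the 10 genes was 0.92, 0.30 and 0.48 in these 3 comparisons, beside -0.02, -0.01 and -0.01 over all genes tested. The median in AAV-ATF6N over AAV-GFP was 0.66 without AAV-GFP replicate 1 and 1.20 without AAV-GFP replicate 2. In AAV-XBP1S over AAV-GFP it was 0.27 and 0.61 in these settings, and without AAV-XBP1S replicate 1 or 2 it was 0.14 or 0.74 in AAV-ATF6N over AAV-XBP1S.

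**Figure D1:**
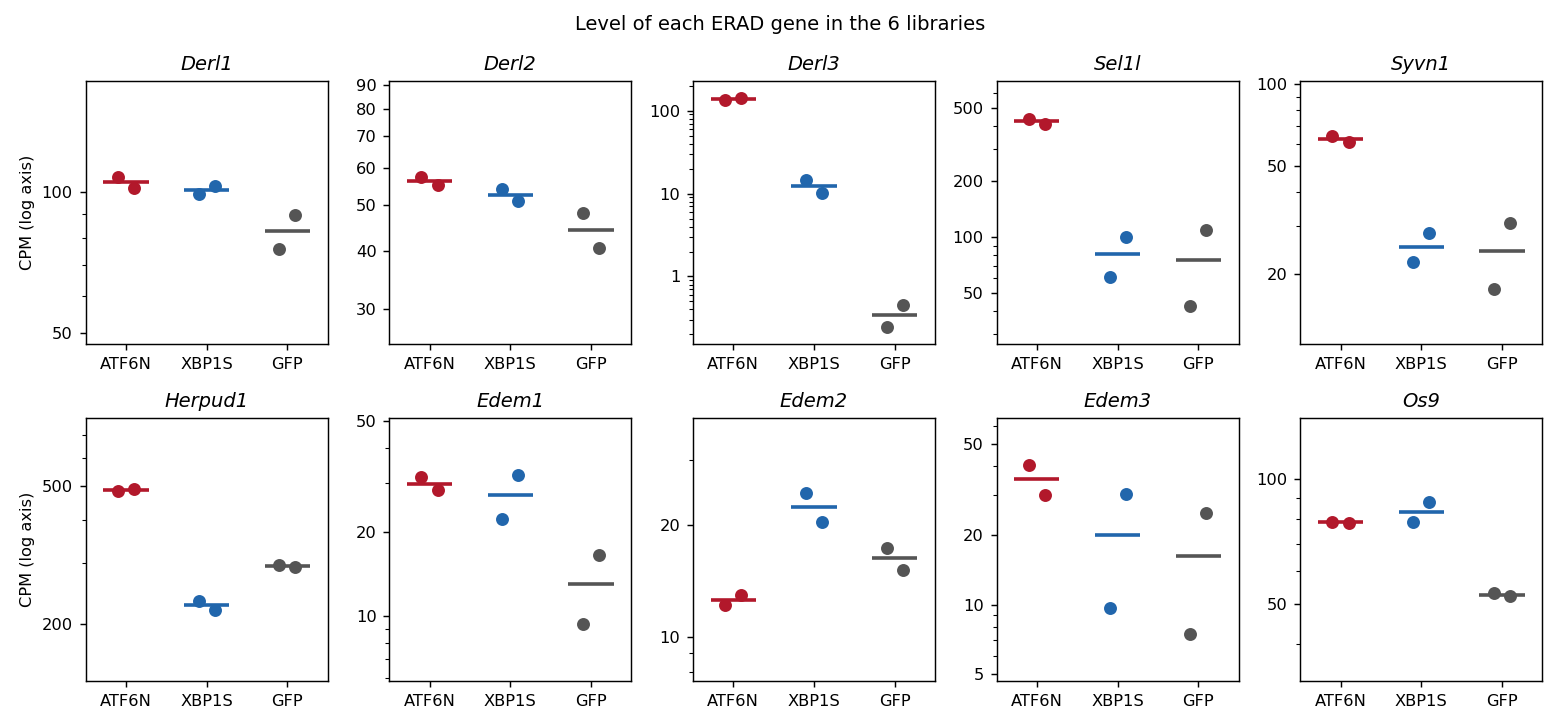
Level of each of the 10 ERAD genes in CPM on a log axis, with a point per library and a bar at the mean of the 2 libraries of AAV-ATF6N, AAV-XBP1S and AAV-GFP. Derl3 runs from 142 CPM in an AAV-ATF6N library to 0.244 CPM in an AAV-GFP library, while the AAV-XBP1S and AAV-GFP points of Sel1l, Syvn1 and Edem3 overlap.

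The derlins are rhomboid-like membrane proteins that help move ERAD substrates out of the ER. Derl3 (chromosome 10, 75893398 to 75895941) had 136 and 142 CPM in AAV-ATF6N, 14.7 and 10.2 CPM in AAV-XBP1S, against 0.244 and 0.449 CPM in AAV-GFP, where it rested on 24 and 32 counts. The 3 groups did not overlap, and AAV-XBP1S lay between the other two. Mean levels reached 139.0 ± 4.88 CPM in AAV-ATF6N and 12.5 ± 3.21 CPM in AAV-XBP1S, while AAV-GFP averaged 0.346 ± 0.145 CPM (SD, n = 2 libraries each). Derl3 rose 401-fold in AAV-ATF6N over AAV-GFP, with a log2 fold change of 8.67 (SE 0.43, edgeR adjusted p = 0.0013). It rose 36.0-fold in AAV-XBP1S over AAV-GFP (log2 fold change 5.19, SE 0.37, edgeR adjusted p = 0.00551). Between the factors it rose 11.15-fold in AAV-ATF6N over AAV-XBP1S (log2 fold change 3.48, SE 0.33, edgeR adjusted p = 0.0225).

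The call of Derl3 in AAV-ATF6N over AAV-GFP held with each library left out in turn, at log2 fold changes of 8.27 to 9.15. For AAV-XBP1S over AAV-GFP it was lost without AAV-XBP1S replicate 1 (4.94, edgeR adjusted p = 0.089) or replicate 2 (5.44, 0.0955). In AAV-ATF6N over AAV-XBP1S it was lost without AAV-ATF6N replicate 1 (3.51, edgeR adjusted p = 0.16) or 2 (3.44, 0.166) and without AAV-XBP1S replicate 1 (3.73, 0.382) or 2 (3.23, 0.328). Derl3 is known to be abundant in antibody-secreting cells, so markers of those cells were read beside it. Of the 4 found, Jchain had 0.246 and 0.291 CPM in AAV-ATF6N, 0.108 and 0.367 CPM in AAV-XBP1S, against 0.122 and 0.281 CPM in AAV-GFP, and Mzb1 had 1.20 and 1.61, 0.473 and 0.281, and 0.366 and 0.491 CPM in the same order. The 4 markers together came to 6.58 to 6.83 CPM in AAV-ATF6N, 7.54 to 8.14 CPM in AAV-XBP1S, against 7.81 to 9.54 CPM in AAV-GFP, and Igkc was not matched. Most of that sum was Sdc1, which had 5.29 and 4.62 CPM in AAV-ATF6N, 7.33 and 6.58 CPM in AAV-XBP1S, against 7.09 and 8.33 CPM in AAV-GFP. Cd79a had 0.0986 and 0.0612 CPM in AAV-ATF6N, from 8 and 4 counts, 0.226 and 0.318 CPM in AAV-XBP1S, against 0.234 and 0.435 CPM in AAV-GFP. Mzb1 thus lay higher in both AAV-ATF6N libraries than in any other, Sdc1 and Cd79a lower, and Jchain overlapped between groups. The part of such cells in the Derl3 result was not tested.

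Derl1 and Derl2, the more widely expressed derlins, differed little between groups. Derl1 (chromosome 15, 57869502 to 57892418) had 108 and 102 CPM in AAV-ATF6N, 99.4 and 103 CPM in AAV-XBP1S, against 75.8 and 89.7 CPM in AAV-GFP. Derl2 (chromosome 11, 71007445 to 71019263) had 57.4 and 55.2 CPM in AAV-ATF6N, 54.0 and 51.0 CPM in AAV-XBP1S, against 48.0 and 40.4 CPM in AAV-GFP. For both genes every library of either factor lay above both AAV-GFP libraries. The log2 fold changes over AAV-GFP were 0.35 for each gene in AAV-ATF6N, and 0.29 for Derl1 and 0.25 for Derl2 in AAV-XBP1S (SE 0.19 each, edgeR adjusted p from 0.414 to 0.658). They were 0.05 and 0.10 in AAV-ATF6N over AAV-XBP1S, with adjusted p of 0.936 and 0.867.

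The make-up of the derlin family differed between groups more than its widely expressed members did. Per kilobase of exons, Derl3 made up 66.9% and 69.1% of the derlin level in AAV-ATF6N, 19.2% and 14.0% in AAV-XBP1S, against 0.486% and 0.840% in AAV-GFP. The summed level of the 3 derlins was 152 and 154 CPM per kb in AAV-ATF6N, 57.6 and 54.5 CPM per kb in AAV-XBP1S, against 37.5 and 40.02 CPM per kb in AAV-GFP. The ratio of Derl3 to Derl2 per kb was 6.401 and 6.997 in AAV-ATF6N, 0.740 and 0.542 in AAV-XBP1S, against 0.0138 and 0.0301 in AAV-GFP. Derl3 was the most abundant derlin in AAV-ATF6N and the least abundant in both other groups.

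**Figure D2:**
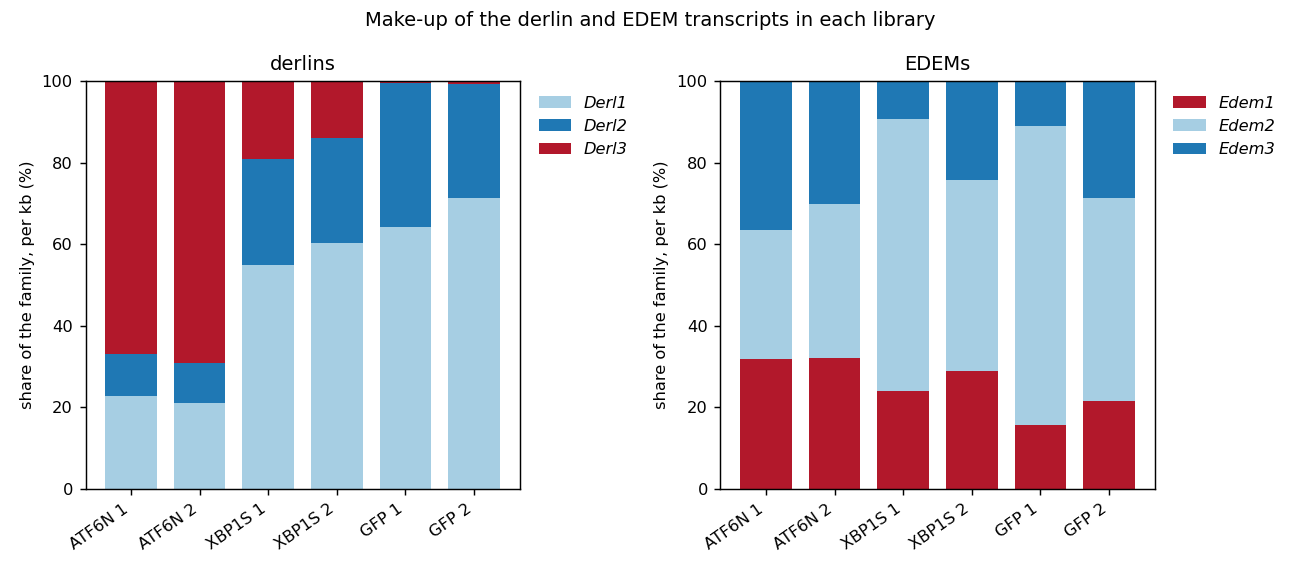
Share of each gene in the summed level of its family per kb of exons, in percent, for the derlins (left) and the EDEMs (right), with a bar per library of AAV-ATF6N, AAV-XBP1S and AAV-GFP. Derl3 fills 66.9% and 69.1% of the derlin bar in AAV-ATF6N and under 1% in AAV-GFP.

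In the HRD1 complex, Sel1l, Syvn1 and Herpud1 were each highest in AAV-ATF6N, but none passed the test in any comparison. Sel1l (chromosome 12, 91806043 to 91849157) had 436 and 409 CPM in AAV-ATF6N, 61.0 and 100.3 CPM in AAV-XBP1S, against 42.3 and 109 CPM in AAV-GFP. Both AAV-ATF6N libraries lay above all others, while AAV-XBP1S lay within the range of AAV-GFP. The mean in AAV-ATF6N was 5.597-fold that of AAV-GFP (log2 fold change 2.48, SE 0.47, edgeR adjusted p = 0.114). In AAV-XBP1S over AAV-GFP the log2 fold change was 0.10 (SE 0.45, adjusted p = 0.945), and in AAV-ATF6N over AAV-XBP1S it was 2.39 (SE 0.47, adjusted p = 0.0973).

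Syvn1 (chromosome 19, 6046576 to 6053718) followed the same order, with 64.2 and 61.1 CPM in AAV-ATF6N, 22.1 and 28.2 CPM in AAV-XBP1S, against 17.6 and 30.8 CPM in AAV-GFP. Its mean in AAV-ATF6N was 2.59-fold that of AAV-GFP (log2 fold change 1.37, SE 0.31, edgeR adjusted p = 0.164) and 2.49-fold that of AAV-XBP1S (1.32, SE 0.31, adjusted p = 0.133). Its log2 fold change in AAV-XBP1S over AAV-GFP was 0.06 (SE 0.30, adjusted p = 0.95). Syvn1 shares 89 of its 3656 exonic bases with Mrpl49, and the library kits do not mark strand, so reads of those bases cannot be assigned to either gene. The ratio of Sel1l to Syvn1 per kb was 3.94 and 3.89 in AAV-ATF6N, 1.601 and 2.06 in AAV-XBP1S, against 1.39 and 2.05 in AAV-GFP. Sel1l thus stood further above its ligase in both AAV-ATF6N libraries than in any other library.

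Herpud1 (chromosome 8, 94386500 to 94395358), a ubiquitin-like membrane protein that joins the complex, was the most abundant of the 10 genes per kb in every group. It had 484 and 490.3 CPM in AAV-ATF6N, 233 and 220.25 CPM in AAV-XBP1S, against 297 and 293 CPM in AAV-GFP. No groups overlapped, and AAV-XBP1S was the lowest. The log2 fold change was 0.72 in AAV-ATF6N over AAV-GFP (SE 0.18, edgeR adjusted p = 0.195), -0.38 in AAV-XBP1S over AAV-GFP (SE 0.18, adjusted p = 0.47) and 1.10 in AAV-ATF6N over AAV-XBP1S (SE 0.18, adjusted p = 0.0655). Derl3, Syvn1 and Herpud1, whose promoters hold ERSE or ERSE-II, each lay higher in both AAV-ATF6N libraries than in all others. Their AAV-XBP1S libraries lay above AAV-GFP for Derl3, overlapped it for Syvn1 and lay below it for Herpud1. The part of the elements in these orders was not tested.

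For these 3 complex genes the call depended on the test. In AAV-ATF6N over AAV-GFP, DESeq2's Wald test called all 3 higher, with adjusted p of 4.22e-06 for Sel1l, 0.00266 for Syvn1 and 0.0159 for Herpud1, and it called 2.47% of all genes higher. It called Derl3 alone of the 10 in AAV-XBP1S over AAV-GFP, beside 2.1% of all genes. The DESeq2 adjusted p in AAV-ATF6N over AAV-XBP1S was 1.36e-05 for Sel1l, 0.00399 for Syvn1 and 1.1e-05 for Herpud1, and DESeq2 called 2.2% of all genes higher. The authors' deposited table of AAV-ATF6N against AAV-GFP gives a log2 fold change of 2.49 for Sel1l (adjusted p = 2.37e-07), 1.38 for Syvn1 (0.00643) and 0.73 for Herpud1 (0.178), and calls 1.77% of its genes higher. The authors' deposited table of AAV-XBP1S against AAV-GFP calls 0.809% of its genes higher, of the 10 only Derl3 (log2 fold change 5.18, adjusted p = 5.65e-22). With AAV-GFP replicate 2 left out, so that the control was 1 library, the edgeR log2 fold changes in AAV-ATF6N over AAV-GFP were 3.33 for Sel1l, 1.84 for Syvn1 and 0.72 for Herpud1, with adjusted p of 0.0207, 0.0251 and 0.0385. That setting called 10.4% of all genes higher, and its test assumes that the lone control library varies like the other groups. Without AAV-GFP replicate 1 they were 1.96 for Sel1l and 1.02 for Syvn1, and neither passed. With either AAV-GFP library left out, all 3 passed in AAV-ATF6N over AAV-XBP1S, with edgeR adjusted p from 0.0133 to 0.0268, beside 1.91% of all genes called higher without replicate 1 and 1.6% without replicate 2. Without a filter on low counts, edgeR called Sel1l and Syvn1 in AAV-ATF6N over AAV-GFP, beside 1.23% of all genes called higher, and all 3 in AAV-ATF6N over AAV-XBP1S, beside 0.95%.

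**Figure D3:**
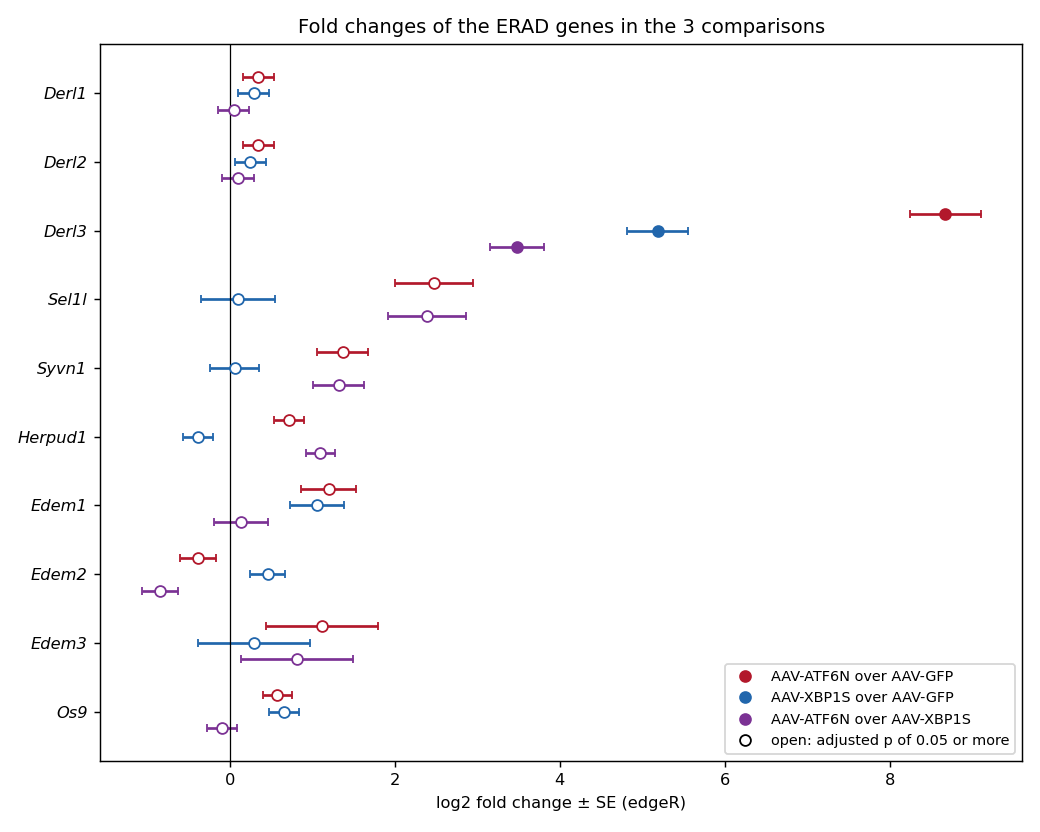
Log2 fold change of each ERAD gene with its standard error from edgeR, in AAV-ATF6N over AAV-GFP, AAV-XBP1S over AAV-GFP and AAV-ATF6N over AAV-XBP1S, where filled points passed an adjusted p of 0.05. Derl3 is filled in all 3 comparisons, at 8.67, 5.19 and 3.48, and every other point is open.

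The EDEM proteins act on the sugar chains of misfolded glycoproteins and mark them for ERAD by trimming mannose. Edem1 (chromosome 6, 108828641 to 108859356) had 31.4 and 28.3 CPM in AAV-ATF6N, 22.2 and 32.1 CPM in AAV-XBP1S, against 9.38 and 16.6 CPM in AAV-GFP. Every library of either factor lay above both AAV-GFP libraries, while AAV-ATF6N and AAV-XBP1S overlapped. The mean was 2.30-fold that of AAV-GFP in AAV-ATF6N (log2 fold change 1.20, SE 0.33, edgeR adjusted p = 0.249) and 2.09-fold in AAV-XBP1S (1.06, SE 0.33, adjusted p = 0.309). For AAV-ATF6N over AAV-XBP1S the log2 fold change was 0.14 (SE 0.33, adjusted p = 0.895). DESeq2 called Edem1 higher in AAV-ATF6N over AAV-GFP (adjusted p = 0.028), as does the authors' deposited table (log2 fold change 1.21, adjusted p = 0.0402). With edgeR it passed without AAV-GFP replicate 2 (1.67, adjusted p = 0.0325), where the control is 1 library and 10.4% of all genes were called higher, and not without AAV-GFP replicate 1 (0.85, adjusted p = 0.337).

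Edem2 did not share the pattern of Edem1. Edem3 lay higher in both AAV-ATF6N libraries than in both AAV-GFP libraries, as Edem1 did, but its AAV-XBP1S libraries overlapped both other groups. Edem2 (chromosome 2, 155701673 to 155729475), which starts the mannose trimming, had 12.1 and 12.9 CPM in AAV-ATF6N, 24.4 and 20.35 CPM in AAV-XBP1S, against 17.4 and 15.2 CPM in AAV-GFP. The 3 groups did not overlap, with AAV-XBP1S highest and AAV-ATF6N lowest. The log2 fold change was -0.38 in AAV-ATF6N over AAV-GFP (SE 0.22, edgeR adjusted p = 0.42), 0.46 in AAV-XBP1S over AAV-GFP (SE 0.21, adjusted p = 0.476) and -0.84 in AAV-ATF6N over AAV-XBP1S (SE 0.22, adjusted p = 0.165). DESeq2 called it lower in AAV-ATF6N over AAV-XBP1S (adjusted p = 0.0282), beside 3.55% of all genes. Edem3 (chromosome 1, 151755374 to 151822328) had 40.6 and 30.0 CPM in AAV-ATF6N, 9.71 and 30.3 CPM in AAV-XBP1S, against 7.45 and 25.1 CPM in AAV-GFP. Replicate 1 lay far below replicate 2 in AAV-XBP1S and AAV-GFP, and no comparison passed (log2 fold changes of 1.12, 0.30 and 0.82, SE 0.68 each, edgeR adjusted p from 0.435 to 0.876).

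The summed EDEM level overlapped between AAV-ATF6N and AAV-XBP1S and lay higher in both than in AAV-GFP. It was 16.8 and 15.0 CPM per kb in AAV-ATF6N, 15.9 and 18.9 CPM per kb in AAV-XBP1S, against 10.3 and 13.2 CPM per kb in AAV-GFP. Edem2 made up 31.5% and 37.6% of it in AAV-ATF6N, 66.9% and 46.8% in AAV-XBP1S, against 73.5% and 49.9% in AAV-GFP. Edem1 made up 31.9% and 32.2% in AAV-ATF6N, 23.9% and 28.9% in AAV-XBP1S, against 15.5% and 21.4% in AAV-GFP. Both AAV-ATF6N libraries had the lowest share of Edem2 and the highest share of Edem1. Edem3 made up 36.6% and 30.2% in AAV-ATF6N, 9.24% and 24.3% in AAV-XBP1S, against 10.9% and 28.7% in AAV-GFP. The shares of Edem2 and Edem3 thus also differed widely between replicates in AAV-XBP1S and AAV-GFP. Edem2 has 2294 exonic bases and Edem3 6604, and the part of gene length in these shares was not tested.

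Os9 (chromosome 10, 127094259 to 127121160) encodes a lectin that reads trimmed sugar chains and hands substrates to SEL1L. It had 78.9 and 78.5 CPM in AAV-ATF6N, 79.0 and 88.0 CPM in AAV-XBP1S, against 53.3 and 52.2 CPM in AAV-GFP. Both factors lay above AAV-GFP by a similar amount, 1.49-fold in AAV-ATF6N (log2 fold change 0.58, SE 0.18, edgeR adjusted p = 0.302) and 1.58-fold in AAV-XBP1S (0.66, SE 0.18, adjusted p = 0.268). For AAV-ATF6N over AAV-XBP1S the log2 fold change was -0.09 (SE 0.18, adjusted p = 0.88).

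Per kb of exons, the order of the 10 genes differed between groups. In AAV-ATF6N it ran from Herpud1 (260.5 CPM per kb) over Derl3 (104), Sel1l (67.1), Derl1 (33.4), Os9 (19.4), Syvn1 (17.1) and Derl2 (15.5) to Edem2 (5.47), Edem3 (5.34) and Edem1 (5.09). Among those neighbours the ranges of the EDEM genes overlapped and the others did not. In AAV-XBP1S it began with Herpud1 (121 CPM per kb), Derl1 (32.2) and Os9 (20.6), which did not overlap, and Derl3 (9.33) lay in a run of overlapping neighbours with Derl2, Sel1l, Edem2 and Syvn1. In AAV-GFP Herpud1 (158 CPM per kb) and Derl1 (26.3) led as well, and Derl3 (0.259) was last, apart from Edem1 (2.22) above it. Herpud1 was thus first in all 3 groups, while Derl3 ranked 2, 7 and 10 in AAV-ATF6N, AAV-XBP1S and AAV-GFP.

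Edem3 and Sel1l, the longest genes of the set, differed most between replicates in AAV-XBP1S and AAV-GFP. Replicate 1 minus replicate 2, on the log2 CPM scale, was 0.44 in AAV-ATF6N, -1.64 in AAV-XBP1S and -1.75 in AAV-GFP for Edem3, which has 6604 exonic bases. It was 0.09, -0.72 and -1.36 in the same groups for Sel1l (6300 bases), and -0.02, 0.08 and 0.02 for Herpud1 (1871 bases). Over all 14587 genes, Spearman's rho between this difference and exonic length was 0.16 in AAV-ATF6N, -0.45 in AAV-XBP1S and -0.41 in AAV-GFP, a description across genes of 1 pair of libraries each. Its median over the 2567 genes longer than 5 kb was 0.06 in AAV-ATF6N, -0.30 in AAV-XBP1S and -0.30 in AAV-GFP. Over the 4474 genes shorter than 2 kb the median was -0.04, 0.35 and 0.51 in the same groups. The shortest gene, Derl3, with 1336 bases, had 0.53 in AAV-XBP1S and -0.82 in AAV-GFP, as far from 0 as the long gene Edem1 (5858 bases), which had -0.53 and -0.82. In AAV-GFP genes of the length of Derl3 lay above 0. With an offset for gene length in the edgeR fit, 4 of the 10 genes were called higher in AAV-ATF6N over AAV-GFP, beside 0.891% of all genes. They were Derl3 (adjusted p = 0.000678), Sel1l (log2 fold change 2.21, 0.0428), Syvn1 (1.20, 0.0351) and Herpud1 (0.89, 0.016). The same 4 genes were called in AAV-ATF6N over AAV-XBP1S, beside 1.69% of all genes, and Derl3 alone in AAV-XBP1S over AAV-GFP, beside 0.836%.

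**Figure D4:**
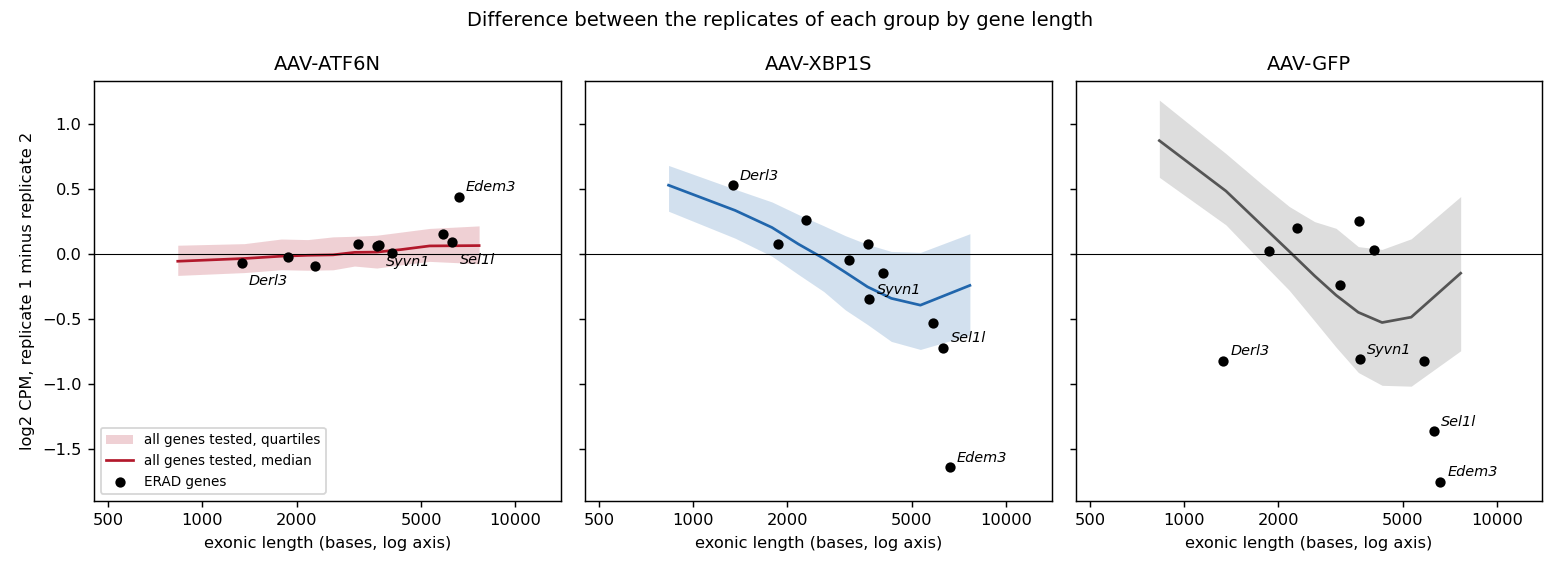
Difference between replicate 1 and replicate 2 of each group in log2 CPM, against exonic length on a log axis, with the median and quartiles of all 14587 genes tested in 10 bins of length and a point per ERAD gene. Edem3 and Sel1l, the longest of the 10 genes, lie at -1.75 and -1.36 in AAV-GFP and at 0.44 and 0.09 in AAV-ATF6N.

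The transcripts of the delivered factors were read beside these values. Atf6 had 162 and 158 CPM in AAV-ATF6N, 77.0 and 111 CPM in AAV-XBP1S, against 44.9 and 70.6 CPM in AAV-GFP, and Xbp1 had 145 and 152, 160.4 and 166, and 98.0 and 115 CPM in the same order. Each was highest in its own group without passing the test over AAV-GFP (edgeR adjusted p = 0.126 for Atf6 in AAV-ATF6N and 0.307 for Xbp1 in AAV-XBP1S). Log2 fold changes over AAV-GFP were 1.47 in AAV-ATF6N and 0.70 in AAV-XBP1S for Atf6. For Xbp1 the margin was narrow, at 0.47 in AAV-ATF6N and 0.61 in AAV-XBP1S. Between the factors Xbp1 had -0.14 in AAV-ATF6N over AAV-XBP1S (edgeR adjusted p = 0.802). For Atf6 in AAV-ATF6N over AAV-GFP the call depended on the setting, as it passed with DESeq2 (adjusted p = 0.000478) and, with edgeR, without a filter (0.00815), with the length offset (0.0441), without AAV-GFP replicate 2 (0.0309) and with the replicate number as a block (0.0203), a setting that called 1.12% of all genes higher. Viral transcripts enter these counts only where they map to the mouse gene.

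Of the 9980 genes compared, those most like Derl3 in log2 CPM over the 6 libraries were Atf3 (Pearson's r = 0.999), Slc2a6 (0.993), Pdia2 (0.993), Cpxm2 (0.989) and Slc38a1 (0.989). These values describe 6 libraries in 3 groups, share the libraries' depth and do not measure the size of a difference. Genes were compared if their mean reached 5 CPM in the group where they were highest. Slc2a6, Pdia2 and Cpxm2 reached it in AAV-ATF6N alone, the group where Derl3 was highest. Pdia2, a protein disulfide isomerase gene, had 34.2 and 33.0 CPM in AAV-ATF6N, 3.01 and 3.15 CPM in AAV-XBP1S, against 0 counts in both AAV-GFP libraries. Atf3, a stress-induced transcription factor gene, had 79.8 and 81.8 CPM in AAV-ATF6N, 59.7 and 54.9 CPM in AAV-XBP1S, against 30.5 and 33.3 CPM in AAV-GFP. Within the 10 ERAD genes, Derl1 came closest to Derl3 (r = 0.88, rank 192) and Edem2 lay furthest (r = -0.34, rank 6297).

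Another 62 genes of ERAD, listed by role, were read in the same fits, and 2 passed: Sdf2l1, a cofactor of the ER chaperones, and Hspa5, the major ER chaperone. The test called 2 of the 62 in AAV-ATF6N over AAV-GFP, beside 0.35% of all genes called higher. In AAV-XBP1S over AAV-GFP it called 1, beside 0.178%. Sdf2l1 had 153 and 166 CPM in AAV-ATF6N, 77.5 and 56.4 CPM in AAV-XBP1S, against 18.1 and 12.3 CPM in AAV-GFP. It rose 10.5-fold in AAV-ATF6N over AAV-GFP (log2 fold change 3.39, SE 0.29, edgeR adjusted p = 0.00988) and 4.399-fold in AAV-XBP1S over AAV-GFP (2.14, SE 0.28, adjusted p = 0.0447). Hspa5 had 2940.5 and 3031 CPM in AAV-ATF6N, 1017 and 1204 CPM in AAV-XBP1S, against 1078 and 1228 CPM in AAV-GFP, and rose 2.59-fold in AAV-ATF6N over AAV-GFP (1.37, SE 0.19, adjusted p = 0.0462). Its log2 fold change in AAV-XBP1S over AAV-GFP was -0.05 (SE 0.19, adjusted p = 0.924). In AAV-ATF6N over AAV-XBP1S edgeR called 0 of the 62, with 6 higher and 0 lower at an unadjusted p under 0.05, beside 5.69% and 7.55% of all genes. DESeq2 called Sdf2l1, Hspa5, the lectin chaperone gene Calr and Uggt1, which encodes the folding sensor of glycoproteins, beside 2.2% of all genes called higher. With edgeR, Calr had log2 fold changes of 1.05 in AAV-ATF6N over AAV-GFP (adjusted p = 0.0908) and 1.28 in AAV-ATF6N over AAV-XBP1S (0.0579), and Uggt1 had 1.53 (0.0529) and 0.89 (0.156). DESeq2 called both in AAV-ATF6N over AAV-GFP as well, beside 2.47% of all genes called higher. In AAV-XBP1S over AAV-GFP, where it called 2.1% of all genes higher, it called Sdf2l1 and Dnajb9, an ER co-chaperone gene. With edgeR, Dnajb9 had a log2 fold change of 1.11 there (adjusted p = 0.167). The calls of Sdf2l1 were lost without any 1 of the AAV-ATF6N or AAV-XBP1S libraries, at 3.33 to 3.44 in AAV-ATF6N over AAV-GFP (edgeR adjusted p from 0.0547 to 0.103) and 1.94 to 2.36 in AAV-XBP1S over AAV-GFP (0.149 to 0.369). That of Hspa5 was lost without any library but AAV-GFP replicate 2, at 1.28 to 1.39 (0.0558 to 0.58).

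By role, the 10 genes of recognition, folding and glycan trimming had median log2 fold changes of 0.85 in AAV-ATF6N over AAV-GFP, 0.31 in AAV-XBP1S over AAV-GFP and 0.62 in AAV-ATF6N over AAV-XBP1S. The other roles lay closer to 0. The 19 partners and ubiquitin-conjugating enzymes of the membrane ligases had medians of -0.08, -0.12 and 0.02 in the same 3 comparisons, the 14 other ER ligases and erlins 0.28, 0.09 and 0.19, and the 19 genes of extraction and shuttling to the proteasome 0.18, -0.09 and 0.35. In these 3 roles 0 of the genes passed in any comparison, with 2 higher and 2 lower at an unadjusted p under 0.05 in AAV-ATF6N over AAV-GFP, 0 and 3 in AAV-XBP1S over AAV-GFP, and 2 and 0 in AAV-ATF6N over AAV-XBP1S. Of all genes, 6.92% were higher and 6.54% lower at that p in AAV-ATF6N over AAV-GFP, and 6.37% and 5.21% in AAV-XBP1S over AAV-GFP. In AAV-ATF6N over AAV-XBP1S the shares were 5.69% and 7.55%. The counts in these 3 roles at that p, over 52 genes, were near or below those shares. In AAV-ATF6N over AAV-XBP1S both AAV-ATF6N libraries lay above in 9 of 19 partners, 7 of 14 ligases and 12 of 19 extraction genes. Over all genes the share was 30.1%. In the same order 2, 1 and 0 lay below, against 26.8%. In AAV-ATF6N over AAV-GFP 5, 5 and 9 lay above, against 27.9%, and 7, 1 and 4 below, against 26.7%. In AAV-XBP1S over AAV-GFP 1, 0 and 0 lay above, against 19.1%, and 5, 1 and 5 below, against 16.8%. Vcp, the ATPase that pulls substrates from the membrane, had 417 and 414 CPM in AAV-ATF6N, 273 and 296 CPM in AAV-XBP1S, against 277 and 291 CPM in AAV-GFP (log2 fold change over AAV-GFP 0.55 in AAV-ATF6N, edgeR adjusted p = 0.306, and 0.00 in AAV-XBP1S, adjusted p = 0.997). Tmub1, a ubiquitin-like membrane protein, had 13.1 and 13.9 CPM in AAV-ATF6N, 15.7 and 12.1 CPM in AAV-XBP1S, against 29.8 and 20.3 CPM in AAV-GFP, with log2 fold changes of -0.89 and -0.85 over AAV-GFP (adjusted p of 0.277 and 0.313). The ligase genes Rnf5 and Rnf185 had -0.47 and 0.22 in AAV-ATF6N over AAV-GFP and -0.15 and 0.31 in AAV-XBP1S over AAV-GFP. Bag6, a chaperone of substrates in the cytosol, had -0.10 in AAV-ATF6N over AAV-GFP and -0.45 in AAV-XBP1S over AAV-GFP, with adjusted p of 0.786 and 0.416.

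**Figure D5:**
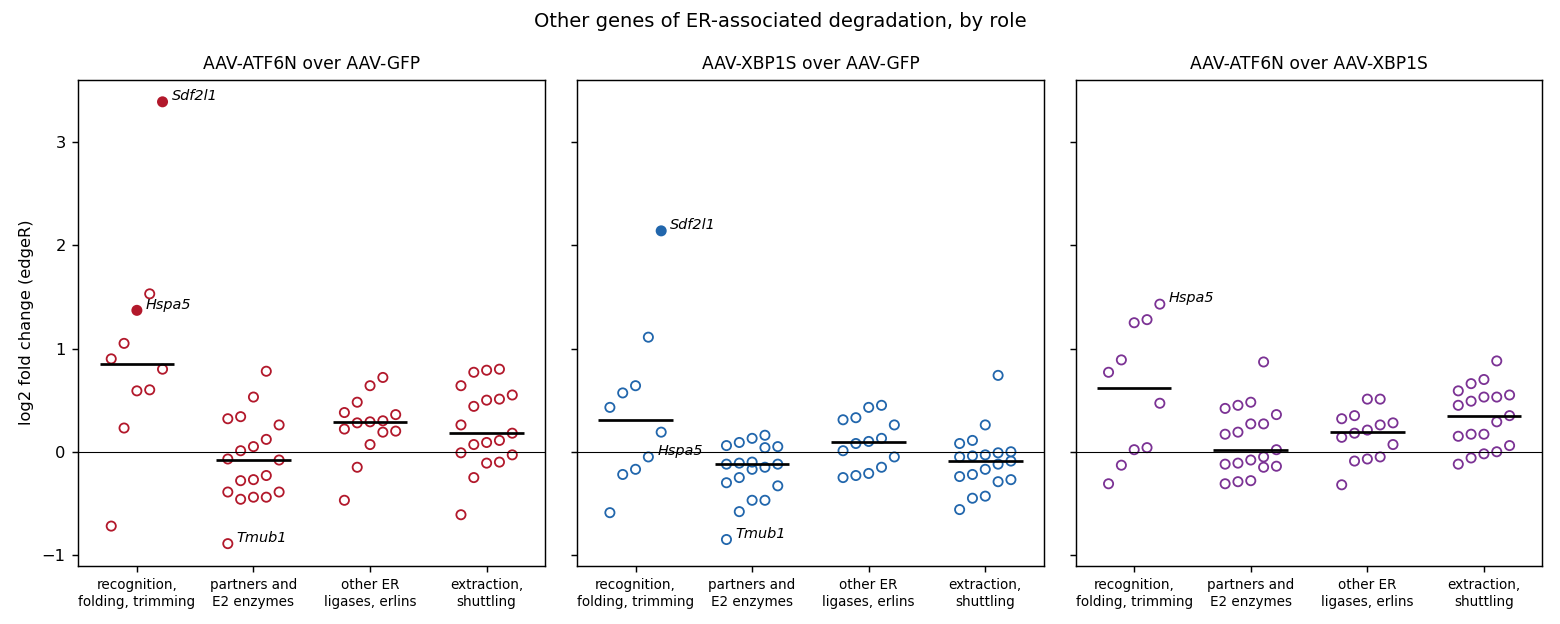
Log2 fold change from edgeR of the 62 other ERAD genes by role, with a point per gene, a bar at the median of the role, and filled points for an adjusted p under 0.05, in AAV-ATF6N over AAV-GFP, AAV-XBP1S over AAV-GFP and AAV-ATF6N over AAV-XBP1S. Sdf2l1 is filled at 3.39 and 2.14 and Hspa5 at 1.37, and medians run from 0.85 to -0.12.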

How the data were processed

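The 6 libraries were made, per the labels' protocols, from PureLink RNA with SMART-Seq v4 (SMART-Seq2 in the descriptions) and Nextera XT kits, which do not mark strand. The authors deposited whole-number read counts per gene, with exonic length and coordinates, per the file headers. The submitters' processing notes name STAR, featureCounts, DESeq2, DESeq and mm10, and the sources used here give neither versions nor the strand setting. The authors deposited as well a table per factor against AAV-GFP, with the mean normalized signal, the log2 fold change with its error, a Wald score, and raw and adjusted p-values, per the file headers.

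Groups came from the labels. Genes were kept by filterByExpr (count minimum 10) and scaled by TMM. The quasi-likelihood test of edgeR 4.0.16 (glmQLFit, glmQLFTest, R 4.3.3) used all 6 libraries and a term for the group alone, two-sided, with Benjamini-Hochberg adjustment over 14587 genes. This left 3 residual degrees of freedom, with a common dispersion of 0.0921 and 3.73 prior degrees of freedom. Standard errors are the log2 fold change divided by the square root of F. With 2 libraries a group, exact permutation reaches no two-sided p below 0.333 and was not used. Ranges of levels within a group run from its lower to its higher library. The scripts were tested on simulated counts.

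The 10 genes, the 62 others and the marker lists were chosen with earlier results of these data known. Named genes were the 10, Xbp1 and Atf6, other ERAD genes past the threshold, the smallest p per role in each comparison with AAV-GFP, and the 5 genes most like Derl3 by Pearson's r of log2 CPM (prior count 2) among those reaching 5 CPM. Sex-linked genes, Rn45s and markers of antibody-secreting cells were read because of their values or known biology. Calr, Uggt1 and Dnajb9 are named where a count of 5 or fewer rests on them, after their values were seen. RefSeq synonyms were used for symbols that the table lacks. Markers of macrophages and leukocytes summed to 18.2 to 18.8 CPM in AAV-ATF6N, 17.8 to 20.3 CPM in AAV-XBP1S and 13.1 to 15.2 CPM in AAV-GFP, and those of smooth muscle and pericytes to 140.3 to 161 CPM, 197 to 283 CPM and 127 to 205 CPM. Alternatives were DESeq2 1.42.0, its size factors, no filter, only the libraries compared, the replicate number as a block and each library left out. A gene-length offset and leaving out both libraries with most Rn45s were added after seeing the data. Promoter windows came from RefSeq tables on GRCm38.p6.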

Additional observations from a re-analysis of the deposited data

How the results depend on the processing

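The labels number the replicates 1 and 2 in each group without saying that a number marks a shared litter or day, and same-numbered libraries deviated together only between AAV-XBP1S and AAV-GFP (correlation 0.38, against -0.05 and -0.04 in the other pairs of groups). With the replicate number as a block, edgeR called 3 of the 10 ERAD genes in AAV-ATF6N over AAV-GFP, 4 in AAV-ATF6N over AAV-XBP1S and 1 in AAV-XBP1S over AAV-GFP. The block gave 4, 3 and 1 of the other ERAD genes, and 237, 356 and 165 of all genes in the same comparisons. DESeq2 called 5, 5 and 1 of the 10 genes in these comparisons, 4, 4 and 2 of the others, and 595, 839 and 520 of all genes. Without a filter the counts were 3, 4 and 1, then 4, 3 and 1, then 348, 458 and 233. With only the 4 libraries compared they were 1, 4 and 1, then 0, 3 and 0, then 8, 666 and 13. With the gene-length offset, added after seeing the data, they were 4, 4 and 1, then 4, 4 and 1, then 216, 584 and 288. Leaving out each library in turn gave 1 to 5, 0 to 4 and 0 to 1 of the 10 genes, 0 to 15, 0 to 3 and 0 to 1 of the others, and 4 to 3052, 1 to 669 and 2 to 242 of all genes, against 75, 33 and 46 with all libraries. AAV-GFP replicate 2 set the upper end in both comparisons with AAV-GFP. The split of higher and lower calls over all genes moved as well. It was 25 higher and 8 lower in AAV-ATF6N over AAV-XBP1S, against 321 and 518 with DESeq2, 175 and 283 without a filter and 246 and 338 with the length offset. In AAV-XBP1S over AAV-GFP it was 26 and 20, against 122 and 166 with the length offset. The cause of these shifts was not tested. Estimates near 0 that never passed changed sign. With each library left out in turn, log2 fold changes in AAV-XBP1S over AAV-GFP ran from -0.43 to 0.96 for Sel1l, -0.30 to 0.54 for Syvn1, -0.74 to 1.46 for Edem3, -0.17 to 0.11 for Hspa5, -0.34 to 0.09 for Rnf5 and -0.05 to 0.11 for Vcp. In AAV-ATF6N over AAV-GFP Rnf185 ran from -0.07 to 0.59. In AAV-ATF6N over AAV-XBP1S the ranges were -0.02 to 0.09 for Derl1, -0.15 to 0.42 for Edem1, -0.22 to 0.11 for Tmub1 and -0.26 to 0.05 for Rnf185. With the length offset, Sel1l was -0.01, Syvn1 -0.0041, Rnf5 0.02 and Vcp -0.08 in AAV-XBP1S over AAV-GFP, and Derl1 -0.01, Derl2 -0.02, Edem1 -0.05 and Tmub1 0.16 in AAV-ATF6N over AAV-XBP1S. Leaving out AAV-GFP replicate 1 and AAV-XBP1S replicate 1, the libraries richest in Rn45s, was added after seeing the data and leaves 1 library in each of these groups, so it gave values and no test. Sel1l and Syvn1 were then -0.12 and -0.13 in AAV-XBP1S over AAV-GFP, Rnf185 -0.07 in AAV-ATF6N over AAV-GFP, and Edem1 and Tmub1 -0.10 and 0.15 in AAV-ATF6N over AAV-XBP1S, while Derl3 was 8.27, 4.50 and 3.77 in AAV-ATF6N over AAV-GFP, AAV-XBP1S over AAV-GFP and AAV-ATF6N over AAV-XBP1S. Of the 390 estimates of the 10 genes under the 13 alternatives, 327 kept their direction and, where a test was run, their side of the threshold. Of the rest, 37 newly passed, 6 lost their call, 16 changed sign, and 4 without a test moved by more than a standard error.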
